A study of Mus musculus with 2 samples.

Results

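The 32 genes described here carry annotated biotypes that hold small structural noncoding RNA genes, and had counts in the embryonic mouse intestine. The biotype alone does not make each member such an RNA. They were chosen by 2 criteria: a GENCODE M21 biotype of snRNA, snoRNA, scaRNA or misc_RNA, and an estimated read count of at least 10 in each of 2 libraries. They are 32 of 3470 annotated genes of these 4 biotypes and of 43346 mouse genes in the deposited tables: 12 snoRNA, 10 misc_RNA, 7 snRNA and 3 scaRNA genes. Because the estimated count chose them, their levels are given as a description, with no test.

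Both libraries are total RNA-seq of intestine from B6NCrl embryos at day 14.5, made from 10 ng of RNA for which the labels give a size range above 200 nucleotides. They form 1 group, replicate 1 and replicate 2, so no comparison of conditions is possible and every difference below is a difference between replicates. The labels name a single intestine of 1 pup as the source of each library, collected on different days, and yet give the sex as pooled. Xist, transcribed from the inactive X chromosome, had 77.2 TPM in replicate 1 and 0.060 TPM in replicate 2, while the Y-linked gene Ddx3y had 0 TPM in replicate 1 and 28.2 TPM in replicate 2, which goes against a pooled sex in either library. TPM is a level corrected for the length of the gene and scaled to 1 total in every library. The gene counts summed to 32938592 in replicate 1 and 32371363 in replicate 2. The 9 markers of intestinal epithelium, muscle, neurons, mesenchyme and endothelium given here (Cdx1, Cdx2, Epcam, Vil1, Acta2, Actg2, Ret, Col3a1 and Pecam1) had at least 1 TPM in both libraries, with means between 13.02 and 1584 TPM.

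Small structural RNAs work as scaffolds and guides of ribonucleoprotein machines rather than as templates for protein. The snRNAs recognise splice sites and branch points in the spliceosome, snoRNAs of the C/D and H/ACA boxes guide ribose methylation and pseudouridylation of ribosomal RNA or take part in its cleavage, and scaRNAs guide the same changes on snRNAs in the Cajal body. The misc_RNA biotype holds, among others, 7SL RNA, the core of the signal recognition particle that brings ribosomes to the endoplasmic reticulum, and 7SK RNA, which holds the transcription elongation kinase P-TEFb inactive. Many of these genes exist in several near-identical copies, and most mammalian guide RNAs are cut out of introns of host genes.

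The sequences that carry the results are those in which copies could or could not be told apart, and those that hold letters searched for in each class. The letters alone do not assign a member to a class. They are taken 5′ to 3′ from the GENCODE M21 transcripts on GRCm38, the assembly also called mm10, with U written as T. In the first 107 bases of Rn7sk (chr9:78175303-78175633, minus strand) the capitals mark GATC. In Rnu2-10, a U2 snRNA (chr11:101658238-101658428, plus strand), they mark GTAGTA, which pairs with the branch point, and ATTTTTG, a form of the site bound by the Sm protein ring. In Rnu1a1, a U1 snRNA that fell below the count minimum (chr11:87422867-87423030, plus strand), they mark ACTTACCTG, which pairs with the 5′ splice site, and an Sm-type ATTTGTG. Gm24407 (chr5:115490254-115490394) and Gm24265 (chr5:115489459-115489599) are a pair of snRNA genes on the plus strand, with ATTTTTG in capitals. In Rnu3b2 (chr11:87471368-87471582) and Rnu3a (chr10:40258467-40258680), U3 snoRNAs on the plus strand, and in Snord17 (chr2:144265979-144266216, minus strand), the capitals mark the C-box letters TGATGA and, in Snord17, the D-box letters CTGA. In Snora28, an H/ACA snoRNA (chr12:111540941-111541067, plus strand), they mark ANANNA, the H box, and ACA near the 3′ end. Gm27640 (chr11:3647179-3647325, minus strand), the member that differed most between the libraries, has no capitals.
Rn7sk: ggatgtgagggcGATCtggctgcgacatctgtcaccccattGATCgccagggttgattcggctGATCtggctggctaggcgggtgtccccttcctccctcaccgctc
Rnu2-10: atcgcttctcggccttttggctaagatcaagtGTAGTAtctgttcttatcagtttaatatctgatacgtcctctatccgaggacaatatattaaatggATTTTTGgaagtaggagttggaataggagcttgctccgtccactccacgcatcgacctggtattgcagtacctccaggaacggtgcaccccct
Rnu1a1: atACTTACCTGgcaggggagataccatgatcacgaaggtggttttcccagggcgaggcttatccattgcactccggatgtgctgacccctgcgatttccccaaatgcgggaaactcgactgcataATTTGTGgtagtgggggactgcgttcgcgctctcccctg
Gm24407: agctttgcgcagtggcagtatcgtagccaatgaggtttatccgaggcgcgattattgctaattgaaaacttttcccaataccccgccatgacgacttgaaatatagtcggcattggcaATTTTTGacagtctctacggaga
Gm24265: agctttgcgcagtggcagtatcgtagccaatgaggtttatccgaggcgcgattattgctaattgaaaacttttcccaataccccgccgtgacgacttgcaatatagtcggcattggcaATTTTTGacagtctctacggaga
Rnu3b2: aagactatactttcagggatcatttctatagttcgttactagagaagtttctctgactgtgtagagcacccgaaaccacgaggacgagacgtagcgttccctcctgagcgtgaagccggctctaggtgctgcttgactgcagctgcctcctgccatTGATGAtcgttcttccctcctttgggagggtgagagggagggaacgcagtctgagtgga
Rnu3a: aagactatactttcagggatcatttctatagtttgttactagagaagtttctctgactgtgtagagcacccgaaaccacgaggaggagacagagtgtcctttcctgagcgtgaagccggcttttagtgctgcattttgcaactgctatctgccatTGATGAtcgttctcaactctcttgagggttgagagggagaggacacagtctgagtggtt
Snord17: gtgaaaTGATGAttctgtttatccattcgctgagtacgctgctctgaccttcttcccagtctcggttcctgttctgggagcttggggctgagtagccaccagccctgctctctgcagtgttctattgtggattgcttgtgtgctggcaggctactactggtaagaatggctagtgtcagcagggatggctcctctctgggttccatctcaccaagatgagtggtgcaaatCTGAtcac
Snora28: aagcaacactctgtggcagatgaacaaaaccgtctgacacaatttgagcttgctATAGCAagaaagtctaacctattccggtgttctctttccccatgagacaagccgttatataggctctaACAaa
Gm27640: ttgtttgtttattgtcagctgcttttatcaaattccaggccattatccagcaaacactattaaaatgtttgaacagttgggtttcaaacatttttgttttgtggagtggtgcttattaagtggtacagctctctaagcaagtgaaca

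The letters were searched on the RNA strand only, in the whole sequence unless said otherwise, among genes of the same kind at least 100 bases long. ATTTTTG occurred in 6 of the 7 snRNA members and in 42 of 1190 snRNA genes, 3.53%. These 6 are the 4 identical U2 genes and the near-identical pair Gm24407 and Gm24265. The 7 snRNA members have only 4 distinct sequences, so their counts are not counts of independent genes. The looser form ATTTNTG, which includes the first, occurred in all 7 members and in 242 of the 1190, 20.3%. GTAGTA occurred in 4 members, the identical U2 genes, and in 45 of the 1190, 3.78%. ACTTACCTG occurred in 1 member and in 55 of the 1190, 4.62%. Of the 15 snoRNA and scaRNA members, 9 held an ANANNA and an ACA that ends 2 to 4 bases before the 3′ end, as did 594 of 1065 such genes, 55.8%. In the printed H/ACA RNA the capitals mark the first ANANNA that starts between bases 51 and 81. TGATGA occurred in 5 of the 15 (Rnu3a, Rnu3b2, Rnu3b4, Scarna2 and Snord17) and in 63 of the 1065, 5.92%. Snord17 was the 1 member with TGATGA in its first 60 bases and CTGA in its last 30, a pair found in 25 of the 1065, 2.35%. In Rnu3b2 and Rnu3a TGATGA starts at bases 157 and 156, beyond the first 60. Both also hold a CTGA near the 3′ end, which is not in capitals. At least 3 GATC occurred in 3 of the 10 misc_RNA members, Rn7sk and the 2 identical 7SL genes, and in 73 of 503 misc_RNA genes, 14.5%.

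Levels among the members spanned from 1.49 ± 0.0071 TPM for Scarna2 to 7133 ± 311 TPM for Rn7s2 (SD, n = 2), with a median over members of 12.4 TPM. Together the 32 genes held 1.68 ± 0.084% of the TPM of all genes and 0.216 ± 0.014% of the gene counts (SD, n = 2). The 2 identical 7SL genes made up 94.3% of the members' TPM in replicate 1 and 94.1% in replicate 2, and 7SK a further 3.14% and 3.06%. The other 29 members summed to 408 ± 48.7 TPM, less than the 469 ± 12.8 TPM of Rn7sk alone (SD, n = 2). The 3438 genes of the same biotypes that were not members summed to 739 TPM in replicate 1 and 812 TPM in replicate 2. In RNA of a whole tissue, fewer cells of a type and less RNA per cell cannot be told apart.

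**Figure D1:**
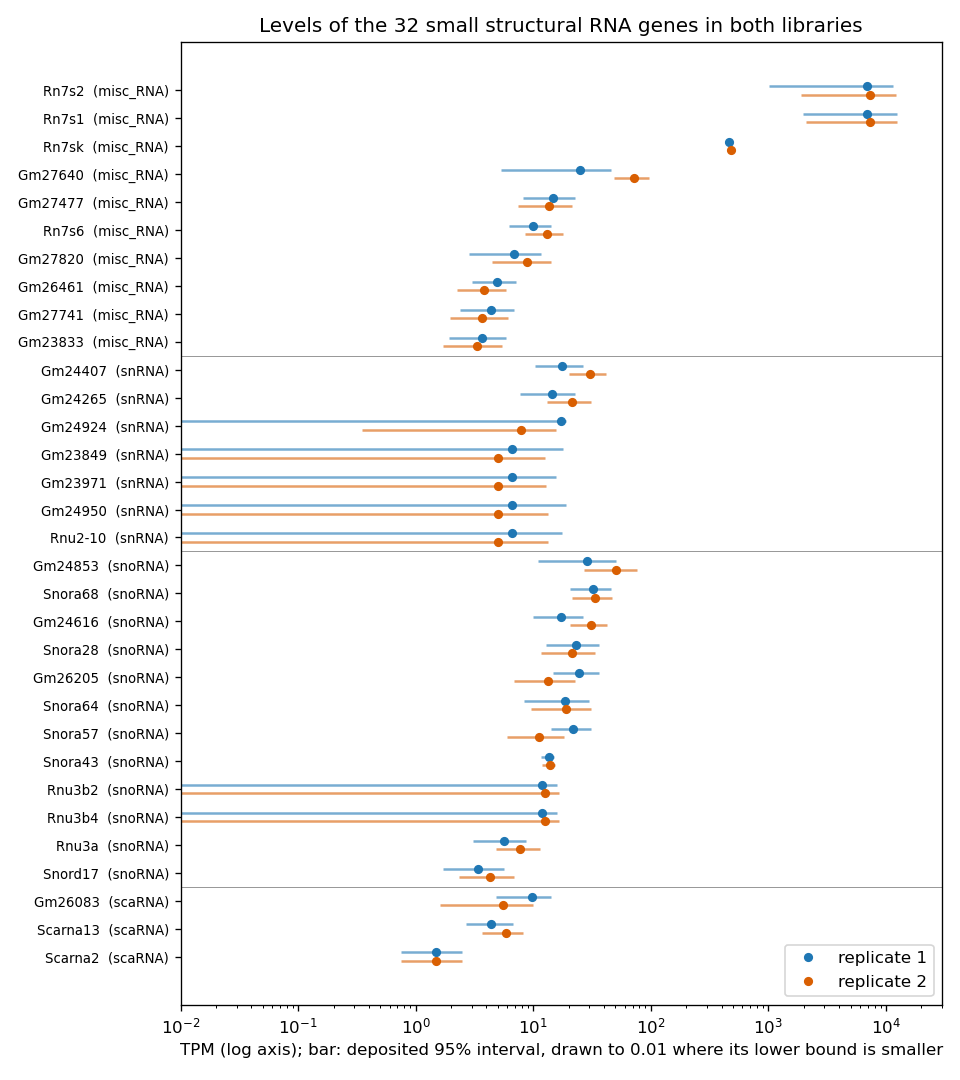
TPM of each of the 32 members (log axis) in replicate 1 (blue) and replicate 2 (orange), with the deposited 95% interval of each library as a bar, drawn to 0.01 TPM where its lower bound is smaller. Rn7s1, Rn7s2 and Rn7sk lie at 460 TPM or above, the other 29 members at 72.4 TPM or below, and the bars of the U2 copies, Gm24924, Rnu3b2 and Rnu3b4 reach far to the left.

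No gene shorter than 100 bases was counted. The effective length, the number of positions from which a fragment can start, was the annotated length less 99 bases for each of the 2758 genes of at least 100 bases. The other 712 genes, all shorter than 100 bases, had an effective length of 0 and no count in either library. Of 97 genes with a Snord symbol, the family of C/D snoRNAs, 86 fell in this class, and Snord17, at 238 bases, was the 1 member. Of 41 genes with a Snora symbol, the H/ACA family with a median length of 133 bases, none fell in it, 35 had a count in some library and 5 were members. A count in either library was found in 97 of 1387 genes of 100 to 129 bases, 6.99%, in 144 of 740 of 130 to 159 bases, 19.5%, and in 67 of 218 of 160 to 199 bases, 30.7%. It was found in 66 of 257 genes of 200 to 299 bases, 25.7%, and in 43 of 156 longer ones, 27.6%. By M21 length, 19 of the 32 members were shorter than the 200 nucleotides of the labelled size range, from Gm24853 at 121 bases upwards. Among these is Snora43, at 139 bases in M21, whose deposited entry holds transcripts of 741 and 2366 bases. The length classes above use the deposited lengths.

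**Figure D2:**
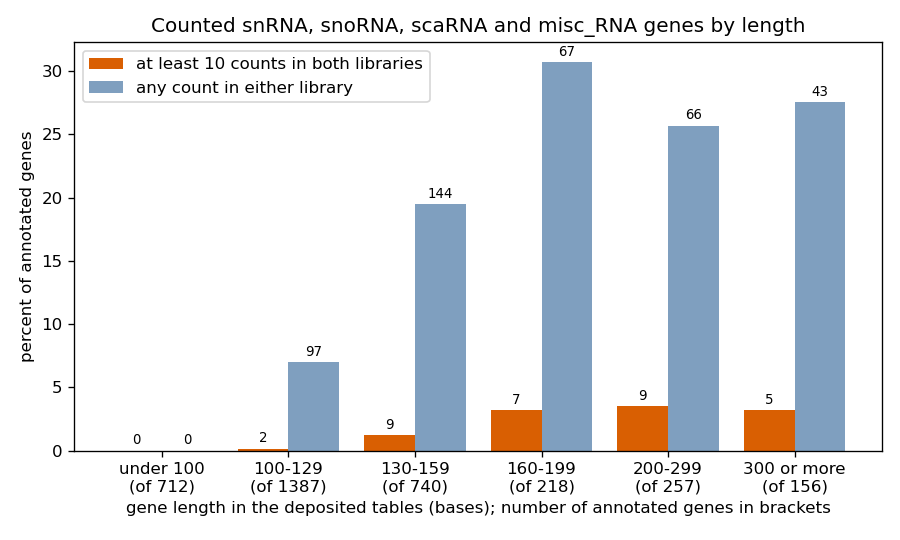
Percent of the annotated snRNA, snoRNA, scaRNA and misc_RNA genes in each length class (bases, from the deposited tables) that were members (orange) or had any count in either library (blue), with the number of genes on each bar. No gene under 100 bases had a count, and the share with a count was highest, at 30.7%, at 160 to 199 bases.

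A short effective length also sets what 1 count is worth. In replicate 1 a count was worth 1.96 TPM for Gm24853, with 22 start positions, and 0.136 TPM for Scarna2, with 315. Snord13, a C/D RNA of rRNA processing with an effective length of 5, had 6 counts in each library and still 51.7 and 51.1 TPM, and was not a member. Scarna2, a guide RNA of the Cajal body, had 11 counts in each library, 1.5 and 1.49 TPM, and was one. In all, 144 genes of the 4 biotypes had at least 1 TPM in both libraries, against the 32 with at least 10 counts.

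The RNA of the signal recognition particle had the highest level. Rn7s1 had 6913 TPM in replicate 1 and 7351 TPM in replicate 2, and Rn7s2 had 6913 and 7353 TPM, on 32273 and 34705 counts for Rn7s1. The 2 genes lie on chromosome 12 and are identical in sequence, so their counts were divided and only the sum, 13826 TPM in replicate 1 and 14704 TPM in replicate 2, is a measured level. The deposited 95% interval of Rn7s1 ran from 1980 to 12475 TPM in replicate 1, and the posterior SD of its count, which measures how uncertain the division of reads between genes is, was 42.5% of its mean. The paired count of 64545 and 69420 reads had a ratio of 1.08 for replicate 2 over replicate 1, with an exact binomial interval of 1.06 to 1.09 (95%, counting error only), while the ratio of all gene counts was 0.983.

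Rn7s6 (chr6:69516339-69516629), a further 7SL-type gene, had 44.7 counts and 10.0 TPM in replicate 1 and 58.7 counts and 13.01 TPM in replicate 2. It is 85.0% identical to Rn7s1, and the posterior SD of its count was 14.6% and 13.4% of the mean. Gm26461 (chr9:88553236-88553525), 79.7% identical to Rn7s6 and placed in an intron of Zfp949, had 4.88 TPM in replicate 1 and 3.84 TPM in replicate 2. All 7 signal recognition particle protein genes found in the tables had at least 1 TPM in both libraries, led by Srp14 at 168 ± 7.92, Srp19 at 135 ± 1.13 and Srp9 at 107 ± 3.93 TPM (SD, n = 2).

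Rn7sk had 460 TPM on 2478 counts in replicate 1 and 478 TPM on 2605 counts in replicate 2. Its deposited intervals, 430 to 466 TPM and 448 to 484 TPM, overlapped and were the narrowest relative to the level of any member. No other annotated gene of the 4 biotypes was 90% identical to it, and the posterior SD of its count was 0.19% of the mean. The 7 protein genes of the 7SK particle and of P-TEFb all had at least 1 TPM in both libraries, from 5.38 ± 0.085 TPM for Hexim1, the P-TEFb inhibitor that 7SK carries, to 66.4 ± 1.07 TPM for the kinase Cdk9 (SD, n = 2). Ccnt2 and Ccnt1, the cyclins of that kinase, had 57.3 ± 0.72 and 39.5 ± 2.28 TPM (SD, n = 2).

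U2 snRNA was counted as 4 identical genes within chr11:101627366-101658428, Rnu2-10, Gm24950, Gm23971 and Gm23849. Each had 14.1 counts and 6.61 TPM in replicate 1 and 10.9 counts and 5.06 TPM in replicate 2, and their sum was 26.4 TPM in replicate 1 and 20.2 TPM in replicate 2. The lower bounds of their intervals were below 0.001 TPM and the upper bounds lay between 12.6 and 18.9 TPM, so no single copy was measured apart from the others. Among the 14 annotated genes at least 90% identical to Rnu2-10, 11 had counts, which summed to 67.0 in replicate 1 and 52.0 in replicate 2.

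U1 snRNA was spread over more copies than U2. Rnu1a1 and 6 identical genes had 6.98 counts each in replicate 1 and 9.01 in replicate 2, and were not members, although they summed to 48.9 and 63.1 counts, against 56.5 and 43.7 counts for the 4 U2 copies. The 33 genes at least 90% identical to Rnu1a1 summed to 117 counts in replicate 1 and 120 in replicate 2, a ratio of 1.03 (exact binomial interval 0.79 to 1.33, 95%). The 1 member among them was Gm24924 (chr18:14647767-14647930), in an intron of Ss18, which differs from Rnu1a1 at 1 of 164 bases. Gm24924 had 17.2 TPM in replicate 1 and 7.80 TPM in replicate 2, with intervals of 0.0039 to 19.1 TPM and 0.35 to 15.5 TPM that overlapped almost throughout. Its apparent difference was -1.045 on the log2(TPM + 1) scale. By the deposited posterior mean TPM its levels lay closer together, at 9.04 in replicate 1 and 6.95 in replicate 2. The ratio of its own rounded counts was 0.46 for replicate 2 over replicate 1 (exact binomial interval 0.21 to 0.95, 95%, counting error only). That interval leaves out the division of reads between copies. The posterior SD of its count was 57.7% of the mean in replicate 1 and 62.1% in replicate 2. The interval of the ratio of the family totals includes 1.

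The snRNA pair Gm24407 and Gm24265 on chromosome 5 differs at 2 of 141 positions, A88G and A99C, counted from 1 at the 5′ end with the base of Gm24407 first. The posterior SD of the count was 0 for both, that is, each read was given to 1 of them. Gm24407 had 17 counts and 17.4 TPM in replicate 1 and 30 counts and 30.4 TPM in replicate 2. Gm24265 had 14 counts and 14.4 TPM in replicate 1 and 21 counts and 21.3 TPM in replicate 2. Both were higher in replicate 2, with intervals that overlapped between the libraries for each gene. The family sum had a ratio of 1.65 for replicate 2 over replicate 1 (exact binomial interval 1.03 to 2.66, 95%, counting error only).

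The other classical snRNAs given here, Rnu11, Rnu5g, Rnu12 and Rnu6, were at or near 0. U4 is not among them. Rnu11, of the minor spliceosome, had 1 and 2 counts, Rnu5g, a U5 gene, 0.50 and 1.00, and Rnu12 and Rnu6 had none in either library. For Rnu12, with 52 start positions, 3 counts would have been 2.48 TPM in replicate 1, and for Rnu6, with 8 positions, 16.1 TPM, so levels below these were not detectable. Among the 304 genes at least 90% identical to Rnu6, 6 had counts, which summed to 2.99 in replicate 1 and 1.00 in replicate 2. The proteins that these RNAs assemble with were all detected. The 8 Sm ring genes had means up to 778 ± 14.9 TPM for Snrpg, followed by Snrpe at 607 ± 12.5 and Snrpb at 512 ± 17.9 TPM (SD, n = 2). The 7 LSm ring genes of U6 lay between 115 and 264 TPM, with Lsm7, Lsm4 and Lsm3 highest. Among proteins specific to single snRNPs, Sf3b1 of the U2 particle had 232 ± 11.4 TPM, and Snrpa and Snrpc of the U1 particle had 225 ± 2.98 and 206 ± 6.29 TPM (SD, n = 2).

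U3, the C/D RNA that takes part in early cleavage of pre-rRNA, was counted in 3 members. Rnu3b2 and Rnu3b4 are identical and had 11.9 TPM each in replicate 1 and 12.7 TPM each in replicate 2, a sum of 24.5 ± 1.10 TPM (SD, n = 2). That SD leaves out the division of reads between copies. The deposited posterior mean TPM was lower, 6.02 and 6.57 for Rnu3b2 and 5.96 and 6.44 for Rnu3b4, in replicates 1 and 2. Rnu3a, 85.1% identical to Rnu3b2, had 5.62 TPM on 15 counts in replicate 1 and 7.77 TPM on 21 counts in replicate 2, all of them assigned with a posterior SD of 0. Rnu3b1 and Rnu3b3, each 1 edit away from Rnu3b2, were listed with 0 counts in both libraries, where 3 counts would have been 1.10 TPM in replicate 1. Their deposited intervals reached up to 15.2 and 16.9 TPM for Rnu3b1, in replicates 1 and 2, and 14.7 and 15.6 TPM for Rnu3b3. Those of Rnu3b2 reached 15.9 and 16.7 TPM, so the counts of 0 do not place either gene below 1.10 TPM. Rnu3b2 and Rnu3b4 lie in introns of Tex14, which itself had 1.10 TPM in replicate 1 and 0.51 TPM in replicate 2. Snord17, a long C/D RNA in an intron of Snx5, had 3.41 TPM in replicate 1 and 4.29 TPM in replicate 2, on 11 and 14 counts. Of the 4 core proteins of C/D particles, Nop56, Snu13 and Nop58 had 271 ± 16.1, 261 ± 15.4 and 206 ± 7.54 TPM and the methyltransferase Fbl 37.9 ± 1.96 TPM (SD, n = 2).

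Among snoRNA members with the H/ACA boxes other than Snora43, mean levels ran from 16.6 TPM for Snora57 to 32.8 TPM for Snora68. Snora68 had 32.3 TPM in replicate 1 and 33.3 TPM in replicate 2, Snora28 had 23.1 and 21.3 TPM, and Snora64 had 18.5 and 19.1 TPM. These 3 differed by less than their counting error: the 24 and 25 counts of Snora68 have exact Poisson intervals of 15.4 to 35.7 and 16.2 to 36.9 (95%). Snora57 had 22.0 TPM in replicate 1 and 11.3 TPM in replicate 2, and Gm26205 had 24.6 and 13.4 TPM. Gm24616 went the other way, with 17.2 TPM in replicate 1 and 30.9 TPM in replicate 2, as did Gm24853, a snoRNA gene in which neither pair of boxes was found, with 28.7 and 50.4 TPM. The intervals of each of these 4 genes overlapped between the libraries. All 5 H/ACA protein genes were detected, with Nop10, Nhp2 and the pseudouridine synthase Dkc1 at 208 ± 10.1, 174 ± 1.80 and 122 ± 10.7 TPM and the assembly factor Naf1 lowest at 3.63 ± 0.59 TPM (SD, n = 2).

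Snora43 (chr2:26637847-26637985) differed from the other members in that its deposited entry is longer than the snoRNA. M21 gives 139 bases, but the deposited gene held 2 transcripts of 741 and 2366 bases, and its effective length was 1136 in replicate 1. The shorter transcript had 9.43 TPM in replicate 1 and 9.66 TPM in replicate 2 and the longer 4.12 and 4.22 TPM, which together gave 13.6 and 13.9 TPM on 358 and 370 counts. These values describe the long transcripts, and in RefSeq the snoRNA overlaps Snhg7, a snoRNA host gene. A second gene with the same symbol, 127 bases long, had 2.43 counts in replicate 1 and none in replicate 2.

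The 3 scaRNA members had low levels. Gm26083 had 9.76 TPM in replicate 1 and 5.57 TPM in replicate 2, Scarna13 had 4.40 and 5.81 TPM, and Scarna2 had 1.5 and 1.49 TPM. The intervals of each overlapped between the libraries. Scarna13 lies in Snhg10, and Gm26083 lies wholly on exons of Snhg20 on the same strand. Of the other Scarna genes, Scarna6 and Scarna3a had 1 count in replicate 1 and none in replicate 2, and Scarna10, at 226 start positions, had none. The 5 Cajal body and chaperone protein genes ranged from 8.38 ± 0.36 TPM for Coil, the coilin gene, to 59.8 ± 1.55 TPM for Nolc1 (SD, n = 2). Smn1 and Wrap53 had 54.0 ± 0.28 and 23.4 ± 2.84 TPM (SD, n = 2).

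Several well-known small RNAs of the same biotypes stayed under the count minimum. Rny1 had 1 count in replicate 1 and none in replicate 2, Rny3 had none, Vaultrc5 had 2 and 1, and Terc, the telomerase RNA, had 1 and 4. Rny3 had only 3 start positions, and 3 counts would have been 43.1 TPM in replicate 1. Terc had 324, so its counts made 0.13 and 0.53 TPM. Their protein partners Ssb, the La protein, Mvp, the main vault protein, and Trove2, the Ro protein, had 226 ± 20.8, 20.4 ± 1.75 and 11.1 ± 0.86 TPM (SD, n = 2). Rmrp and Rpph1, the RNAs of RNase MRP and RNase P, fall outside the chosen biotypes because M21 calls them ribozymes. Rmrp had 81.9 and 98.6 TPM in replicates 1 and 2 and Rpph1 had 93.0 and 98.3 TPM, above every member except the 7SL pair and 7SK. Their protein genes Rpp21, Pop5 and Pop4 had 124 ± 0.52, 107.97 ± 3.42 and 59.2 ± 4.36 TPM (SD, n = 2). Of the factors that make and export snRNAs, Ncbp2, Phax and Ncbp1 were highest, at 77.6 ± 8.26, 66.9 ± 6.84 and 62.5 ± 2.47 TPM (SD, n = 2). Over all partner lists, 84 of 84 protein genes found in the tables had at least 1 TPM in both libraries.

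Just inside the count minimum were the 4 U2 copies, with 10.9 counts in replicate 2, and Gm26205, with 20 and 11 counts. Just outside it were Gm24029 with 9.59 counts in replicate 1 and 10.0 in replicate 2, Gm27869 with 9.50 and 16.9, Gm22596 with 9 in each, Gm24119 with 8 and 14, and Gm25445 with 8 in each. Gm27869, at 17.8 and 31.3 TPM on 23 start positions, had a higher level than most members.

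Many members share their place with another gene. In M21, 15 of the 32 overlapped a gene outside the small RNA biotypes on the same strand, 46.9%, 4 overlapped one on the opposite strand alone and 13 overlapped none. In RefSeq some of these 13 overlapped a longer gene: Snora43 overlapped Snhg7, Gm24407 and Gm24265 overlapped Sirt4, and Rn7s6 overlapped Igk. The RefSeq overlaps were taken without regard to strand. Of all 2758 genes of the 4 biotypes with an effective length above 0, 747 overlapped such an M21 gene on the same strand, 27.1%. Among snoRNA members it was 8 of 12, 66.7%, and among all 1028 snoRNA genes with an effective length above 0 it was 275, 26.8%. Overlap with an exon of that gene was found for 9 members, 7 of them on the same strand, and for 190 of the 2758, 6.89%. Use of strand in counting is not given in the sources used here, so reads of a host, or of an antisense partner, cannot be told apart from reads of the member at these places. Their part in the levels was not tested.

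The hosts included the ribosomal protein genes Rpl6 and Rps2 and the translation initiation factor genes Eif5 and Eif4a2. Gm26205 lay in Rpl6 and Snora64 in Rps2, whose means were 578 ± 6.89 and 1420 ± 57.8 TPM (SD, n = 2). Snora28 lay in Eif5 and Gm24616 in Eif4a2, at 171 ± 3.66 and 180 ± 14.2 TPM (SD, n = 2). In replicate 1 the member's level was 1.34% of its host's for Snora64, 4.22% for Gm26205, 9.05% for Gm24616 and 13.3% for Snora28. The exons that overlapped these 4 belonged to transcripts annotated as retained introns. Both such Rps2 transcripts were in the tables, one with 646 counts in replicate 1 and 931 in replicate 2, the other with 111 and 98.2. The Eif4a2 transcript had 30.1 counts in replicate 1 and 18.9 in replicate 2. Its exons overlapped only 10 of the 139 bases of Gm24616. The retained-intron transcripts of Eif5 and Rpl6 that overlap Snora28 and Gm26205 were not in the tables, so they have no counts here. The levels of Gm26205 and Gm24616 differed by -0.83 and 0.81 on the log2(TPM + 1) scale (replicate 2 minus replicate 1), while their hosts differed by -0.02 and -0.16. Snora64 and Snora28 differed by 0.04 and -0.11, and their hosts by 0.08 and -0.04.

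The other misc_RNA members differed in their surroundings. Gm23833 lay in an intron of Airn, the antisense RNA of the imprinted Igf2r locus, and had 3.66 TPM in replicate 1 and 3.34 TPM in replicate 2. Gm27741, with 4.37 and 3.70 TPM, lay opposite the imprinted gene Plagl1, with 38 bases on its exons, and overlapped the RefSeq span of Hymai. Gm27820, with 6.83 and 8.83 TPM, lay wholly on exons of Hhip on the opposite strand. Gm27477 (chr6:52162125-52162267), with 14.7 and 13.6 TPM, overlapped no other gene in either annotation.

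Gm27640 was the 1 member called different between the libraries. It had 27.9 counts and 25.1 TPM in replicate 1, with an interval of 5.34 to 45.5 TPM, and 81.7 counts and 72.4 TPM in replicate 2, with an interval of 48.6 to 95.9 TPM. The difference was 1.49 on the log2(TPM + 1) scale, and the ratio of its rounded counts was 2.93 (exact binomial interval 1.89 to 4.67, 95%, counting error only). All 147 of its bases lie on exons of Tug1, a long noncoding RNA, on the same strand. Tug1 had 153 TPM in replicate 1 and 135 TPM in replicate 2, a difference of -0.18 on the same scale. The posterior SD of the count of Gm27640 was 37.6% of the mean in replicate 1 and 13.01% in replicate 2, and the part of read division with Tug1 in the difference was not tested.

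A gene was called different when log2(TPM + 1) differed by at least 1 and the deposited 95% intervals did not overlap. Among all 17188 genes with at least 10 counts in both libraries, 51 met this, 0.297%, against 1 of the 32 members. A difference of at least 1 alone was found for 63 genes, 0.367%, and for 2 members, Gm27640 and Gm24924. With 1 and 2 members, these shares say little beyond the 2 genes named. The intervals of the other 31 members overlapped between the libraries.

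**Figure D3:**
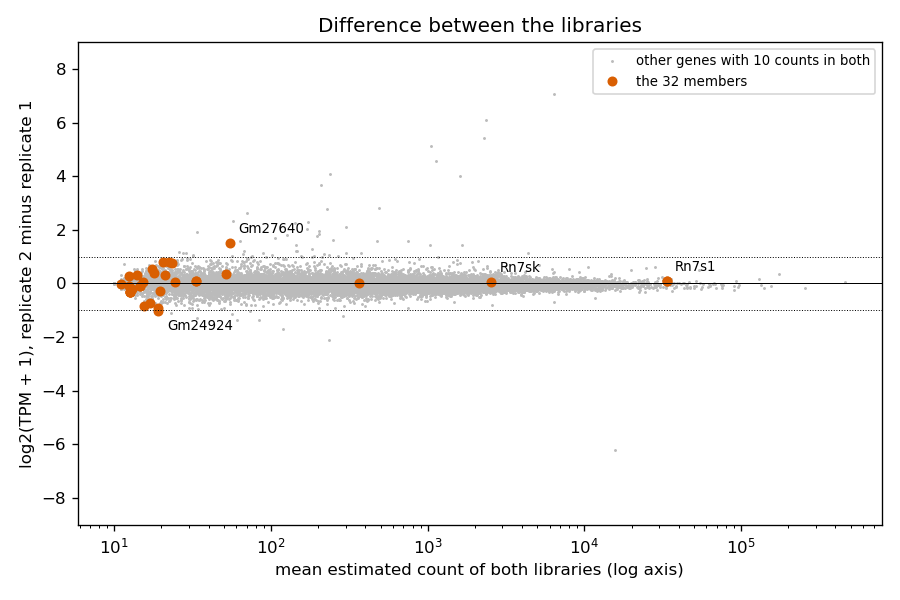
Difference of log2(TPM + 1), replicate 2 minus replicate 1, against the mean estimated count (log axis) for the 32 members (orange) and all other genes with at least 10 counts in both libraries (grey), with dotted lines at 1 and -1. Gm27640 lies above the upper line at 1.49, Gm24924 just below the lower one at -1.045, and Rn7s1 and Rn7sk lie within 0.1 of 0.

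Over the 32 members the median difference was 0.042 on the log2(TPM + 1) scale, with 18 higher and 14 lower in replicate 2, and -0.039 over all 17188 genes. The median size of the difference was 0.33 among members and 0.12 among all genes. After Gm27640 the largest positive differences were those of Gm24616 at 0.81, Gm24853 at 0.79, Gm24407 at 0.77 and Gm24265 at 0.54. After Gm24924 the largest negative ones were those of Snora57 at -0.90, Gm26205 at -0.83, Gm26083 at -0.71 and the 4 U2 copies at -0.33. In the class of 10 to 20 mean counts the median absolute log2 ratio of counts was 0.37 for 19 members and 0.38 for 926 other genes, and in the class of 20 to 50 it was 0.42 for 7 members and 0.40 for 1859. In the class of 50 to 500 counts it was 0.39 for 3 members, Gm27640, Snora43 and Rn7s6, and 0.21 for 4783 other genes, and at 500 or more counts it was 0.10 for both. Identical copies entered these medians, and the 0.33 over all members, as separate members. They are the 4 U2 copies at 10 to 20 counts, Rnu3b2 and Rnu3b4 at 20 to 50, and the 7SL pair at 500 or more. The medians of members are therefore not medians of independent genes. In the class of 10 to 20 counts the median level was 6.70 TPM for members and 0.44 TPM for the others. The part of this gap, or of the added 1, in the differences on the TPM scale was not tested.

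The width of the deposited interval showed how sharply each level was known. The median width over the members, divided by the posterior mean TPM and averaged over both libraries, was 1.04, and it was 0.204 over all 17188 genes. Of the 32 members, 26 had a mean count under 50. Within classes of count the medians were 1.046 for members and 1.02 for other genes at 10 to 20 counts, 0.83 and 0.77 at 20 to 50 counts, and 0.75 and 0.37 at 50 to 500 counts. At 500 or more counts the 3 members, the 7SL pair and 7SK, had a median of 1.40, against 0.122 for 9588 other genes. Identical copies entered these medians as separate members too.

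The members split into 3 kinds by the posterior SD of the count. For 14 members it was 0, and their relative widths ran from 0.77 for Snora68 to 1.09 for Scarna2, in step with their counts of 11 to 30. For 8 members it was above 0 and up to 25% of the mean, among them Rn7sk with the narrowest width of 0.078, Snora43 at 0.26 and Rn7s6 at 0.75. For 10 members it was above 25%: the 7SL pair, the 4 U2 copies, Rnu3b2, Rnu3b4, Gm24924 and Gm27640. The 7 widths above 2 were those of Gm23971 at 2.71, Rnu3b4 at 2.62, Rnu3b2 at 2.59, Gm23849 at 2.59, Rnu2-10 at 2.52, Gm24950 at 2.48 and Gm24924 at 2.14. Each of these 7 has a copy that is identical or differs at 1 base. The 32 members have 27 distinct sequences.

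**Figure D4:**
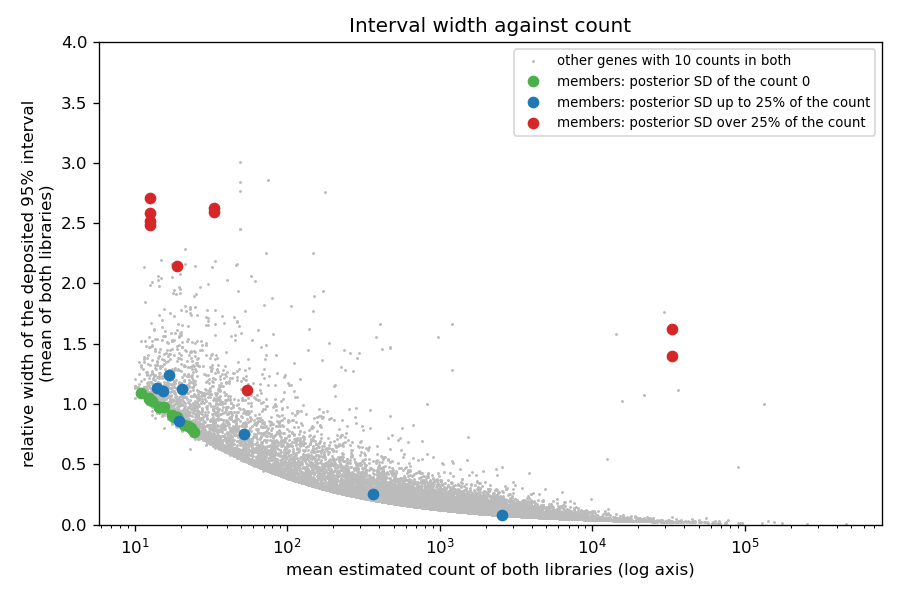
Relative width of the deposited 95% TPM interval (mean of both libraries) against the mean estimated count (log axis) for the members, coloured by the posterior SD of the count, and for the other genes with at least 10 counts in both libraries (grey). The 14 members with a posterior SD of 0 (green) lie along the lower edge between 0.77 and 1.09, and the 10 with over 25% (red) lie above it, the 7SL pair at 1.40 and 1.62.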

How the data were processed

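Total RNA-seq of 2 intestines was analysed from the tables of genes and transcripts that the authors deposited for each library. Per the file headers the reads were aligned to mm10 and quantified against GENCODE M4. The name of the quantification tool, its version and its strand setting were not stated in any source used here. The deposited values used were estimated counts, which need not be whole, TPM, and the posterior mean TPM. The deposited bounds of the 95% intervals and the posterior SD of the count are scores made by the authors' quantification, and were used as given. The deposited FPKM and its interval served as an alternative. The deposited percent of each gene's TPM in each transcript is not printed. No spike-in or gene count was otherwise filtered.

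Biotypes, positions, symbols and sequences came from GENCODE M21, which matched 42462 of 43346 gene identifiers without version, and hosts also from RefSeq on GRCm38.p6. The M21 sequence had the deposited length in 31 of 32 members. Identity was 1 minus the edit distance over the longer length. Exact Poisson and binomial intervals (95%) cover counting error only, and reads without molecular identifiers are not independent molecules. With 1 group of 2 libraries no test was made. The mean ± SD is over both libraries, and log2 differences use TPM plus 1. Genes were named by role class, highest level per biotype, largest differences, widest and narrowest intervals, distance to the count minimum, and the 3 highest partners of each complex. A tissue marker, a host gene and the sequences of some members are not reported here. The members and lists were chosen with earlier results of these data known. Alternatives used other count minimums, posterior means, annotated lengths, edgeR 4.0.16 TMM and DESeq2 1.42.0 size factors on rounded estimated counts (R 4.3.3), and spike-in totals. Other steps used Python 3.11.15, pandas 2.3.3 and scipy 1.17.1.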

Additional observations from a re-analysis of the deposited data

Results flagged for a closer look

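Outside the annotated genes, the tables hold 26248 features identified by a number alone, which no source used here names, and 26185 of them are shorter than 100 bases. They were used in no comparison and had 31 estimated counts in replicate 1 and 30 in replicate 2. The limit of 3 counts that a count of 0 allows holds for 1 feature, so these sums cannot be set against it. These counts lay in 5 features in replicate 1 and 6 in replicate 2, and 1 feature held 23 and 22 of them.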

How the results depend on the processing

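Of 35 alternative values, 16 stayed within the spread between the replicates, or within 1.5 times for counts of genes, and 19 moved. Changes of direction were not checked. The number of members was 64 with a count minimum of 5, 9 with 20, 144 with 1 TPM in both libraries instead, and 3470 with no filter. It lay between 35 and 43 with either replicate left out, and was 29 with identical copies summed, an alternative chosen after seeing the data. The share of gene TPM was 1.25% with annotated lengths, 0.098% without the 7SL genes and 1.77% with no filter. It lay between 1.63% and 1.76% with either replicate left out. The median TPM was 9.90 by posterior means, 5.53 with annotated lengths, 12.3 with an effective length of at least 30, 5.96 with a minimum of 5 and 32.8 with 20, and 11.3 to 11.9 with either replicate left out. The median relative width was 1.24 with a minimum of 5, 1.12 with 20, and 0.99 to 1.06 with either replicate left out. The median difference, 0.042 in the main setting, was 0.089 with TMM factors. It changed sign to -0.032 with spike-in totals, which put the median of all genes at -0.13. The number of members that differ was 2 by the difference alone and 4 with no filter, which added Snord118, Snora30 and Gm27845. The cause of these moves was not tested. No paired analysis was possible because there is 1 group. Low counts limit most members: the 11 counts of Scarna2 have an exact Poisson interval of 5.49 to 19.7.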
